A study of Carica papaya with 7 samples.

Results

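The 7 Arabidopsis genes described here encode enzymes that make, use or regenerate ascorbate (vitamin C), and their signals were compared between ripe and unripe pulp of papaya (Carica papaya, cultivar Golden). They were chosen by gene symbol or Arabidopsis gene identifier, and each was represented by 1 probe set among the 22746 of the array. The synthesis genes are PMM (AT2G45790), GME (AT5G28840), VTC4 (AT3G02870), L-galactose dehydrogenase (L-GalDH, AT4G33670) and GLDH (AT3G47930). The genes grouped as recycling are SAPX (AT4G08390), which spends ascorbate, and a monodehydroascorbate reductase (MDHAR, AT3G09940), which regenerates it. L-GalDH and MDHAR are also listed by the study among its redox genes, a list it chose on these same samples. The array was the Affymetrix ATH1 GeneChip, which carries probes for Arabidopsis transcripts, so that papaya RNA was read across species. The table holds 3 ripe and 3 unripe columns of pulp without peel and seeds, each sample made of 12 fruits harvested from colour break to partly yellow. Per the paper, unripe pulp was sampled soon after harvest and ripe pulp at a later time point of ripening. Its methods take 1 replicate of each stage from an earlier study and the others from a later year. The labels describe neither a treatment nor a transgene in any group. A genomic DNA array also belongs to the series and was not analysed here.

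Plants make ascorbate mainly from mannose through L-galactose. Phosphomannomutase (PMM) makes mannose 1-phosphate, which is activated to GDP-mannose, and GME turns GDP-mannose into GDP-L-galactose. After GDP-L-galactose phosphorylase has released L-galactose 1-phosphate, VTC4 removes the phosphate, L-GalDH oxidizes L-galactose to its lactone, and GLDH in the mitochondrial inner membrane makes ascorbate from that lactone. Ascorbate peroxidases such as SAPX, of the chloroplast stroma, spend ascorbate to remove hydrogen peroxide, and MDHAR returns the oxidized form to ascorbate. Vitamin C is a well-known constituent of ripe papaya.

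The columns of a stage were not independent. Replicate 2 equalled replicate 1 multiplied by 1.19 in both stages, while replicate 3 equalled the average of these 2, and this held for all 22810 probe sets of the table including controls (tolerance 0.0011 in the signal). Each stage therefore held 1 independent set of values, and no difference below has a replicate check, an SD or a p-value. Of the 27 Bacillus subtilis control probe sets, which match no plant gene, the brightest had a signal of 8.22 and the next 4.58. Their log2 differences, ripe minus unripe, ran from -0.28 to 0.12. The median difference of all probe sets was -0.0047, and 48.4% of them were higher in ripe pulp. The hybridization controls bioB, bioC and bioD (bio controls below) had a mean difference of -0.58 and the cre controls one of -0.086. Bio-control scaling, which sets the bio controls equal in both stages, would therefore raise every difference by 0.58, and cre-control scaling would raise it by 0.086. Of 16 marker genes of seed, green plastids and ripening, 1 could be matched to a probe set. It was the seed oleosin AT3G01570, an oil body protein, with signals of 4.95 in ripe and 6.16 in unripe pulp, and its part in the results was not tested.

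The 2 synthesis genes with the largest differences were GME and L-GalDH, both brighter in ripe pulp. GME had signals of 17.395, 20.7 and 19.048 in the ripe columns, against 11.836, 14.085 and 12.961 in the unripe columns. Every ripe column lay above every unripe column. Its mean signal was 19.0 in ripe and 12.9 in unripe pulp, a log2 difference of 0.56 or 1.47 fold. Of all 22746 probe sets, 78 had a higher difference than GME. More RNA per cell and more cells of a type cannot be told apart in such pulp samples.

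L-GalDH had signals of 12.977, 15.443 and 14.21 in ripe columns, and 9.579, 11.399 and 10.489 in unripe columns. Here, too, the columns of both stages did not overlap. The mean was 14.2 in ripe and 10.5 in unripe pulp, which gave a log2 difference of 0.44 or 1.35 fold. A higher difference was found for 241 probe sets. Columns of one stage differ by up to a factor of 1.19 by construction, so that the gap between stages is a matter of size alone. Beyond a log2 difference of 0.32, the size threshold used by the study, 2 of the 7 genes were higher in ripe pulp and 0 were lower. Over all probe sets, 3.57% passed it upwards (812) and 3.53% downwards (804). The 7 genes are no neutral draw to set beside these shares, since L-GalDH and MDHAR are on the study's list chosen on these same samples. Under cre-control scaling the same 2 genes would pass the threshold, beside 1854 probe sets upwards and 349 downwards. Bio-control scaling would bring all 7 past it, beside 21115 upwards and 8 downwards. Adding 16 to each signal before log2 brought GME to 0.27 and L-GalDH to 0.19, both short of it.

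**Figure D1:**
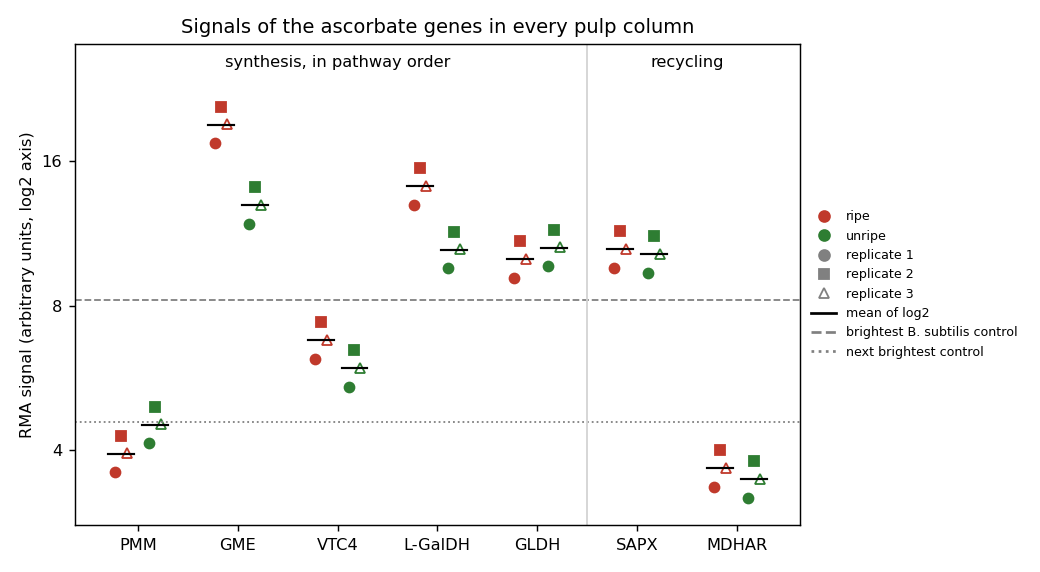
RMA signal (log2 axis) of each gene in the 3 ripe columns (red) and 3 unripe columns (green), with black bars for the mean log2 signal and grey lines for the 2 brightest Bacillus subtilis controls at 8.22 and 4.58. GME and L-GalDH are the genes whose ripe and unripe columns do not overlap, and PMM and MDHAR lie at the level of the controls.

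VTC4, the phosphatase between these enzymes, had signals of 6.20, 7.38 and 6.79 in ripe columns, against 5.43, 6.46 and 5.95 in unripe columns. The columns of the stages overlapped. Its log2 difference was 0.19, higher in ripe pulp by 1.14 fold, and 2742 probe sets had a higher one.

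The first and the last enzyme of the route as measured here, PMM and GLDH, had negative log2 differences as deposited. Both differences lay inside the range of the bacterial controls. PMM gave 3.60, 4.29 and 3.94 in ripe pulp and 4.14, 4.93 and 4.54 in unripe pulp. These signals lie among those of the bacterial controls. The log2 difference of PMM was -0.20, which would be -0.12 under cre-control scaling and 0.37 under bio-control scaling.

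GLDH gave 9.15, 10.9 and 10.0 in ripe columns and 9.67, 11.5 and 10.6 in unripe columns. The stages overlapped almost fully. Its log2 difference of -0.081 would be 0.0056 under cre-control scaling and 0.50 under bio-control scaling, so that its direction depends on the scaling.

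Since a constant scaling moves all genes alike, differences between genes of the same arrays do not depend on it. The ripe minus unripe difference of GME exceeded that of GLDH by 0.64 on the log2 scale, that of VTC4 by 0.36 and that of L-GalDH by 0.12. L-GalDH exceeded GLDH by 0.52 and VTC4 by 0.25. For comparison, the bacterial controls spanned 0.40 from the lowest to the highest. All but the brightest of them had signals of 4.58 or less, so that this span describes dim probe sets. GME, L-GalDH and GLDH were brighter, and the spread of bright probe sets was not measured by these controls. The gaps from GME to GLDH and from L-GalDH to GLDH were wider than this span, and the others named were narrower. PMM was left out of these gaps because its signals lie at the level of the controls. The median of the 5 synthesis genes was 0.19, with 3 higher and 2 lower in ripe pulp as deposited, while under bio-control scaling all 5 would be positive and under cre-control scaling 4.

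Brightness differed among the genes in a way that bears on their reading. GME, L-GalDH, GLDH and SAPX were brighter than the brightest bacterial control in at least 1 stage, as were 10.5% of all probe sets. VTC4 passed the next brightest control, and PMM and MDHAR passed neither. Among the 2388 probe sets brighter than the brightest control, 8.92% were higher and 10.2% lower in ripe pulp by over 0.32 on the log2 scale. In that subset 49 probe sets had a higher difference than GME and 96 a higher one than L-GalDH.

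**Figure D2:**
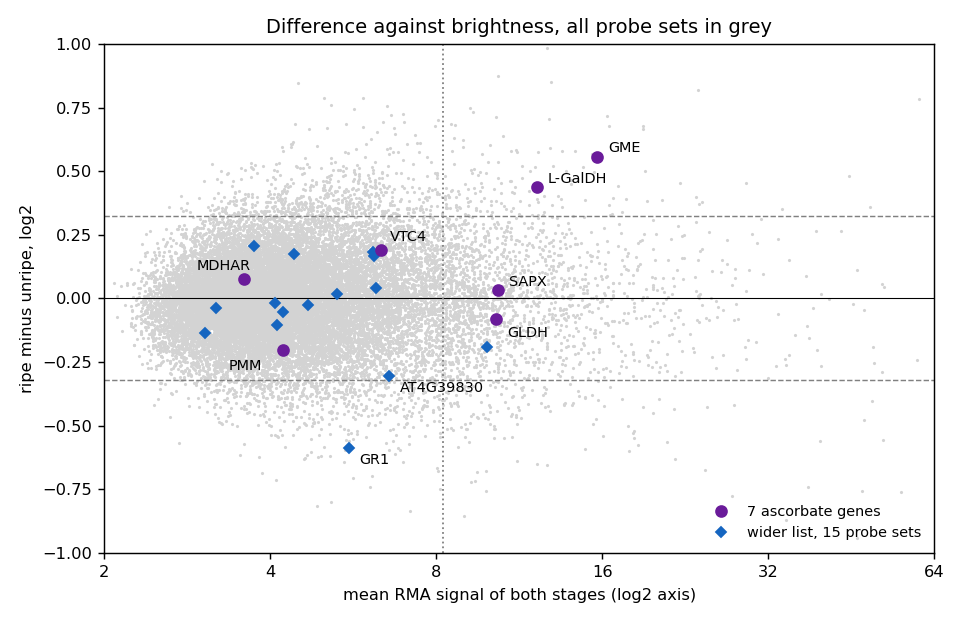
Log2 difference, ripe minus unripe, against the mean RMA signal of both stages (log2 axis) for all probe sets (grey), the 7 ascorbate genes (purple) and the wider list (blue diamonds). Dashed lines mark a log2 difference of 0.32 in either direction and the dotted line the brightest bacterial control at 8.22. GME and L-GalDH lie to the right of the dotted line and above the upper dashed line, and GR1 lies below the lower one; 47 probe sets lie outside the axes.

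The recycling genes had small differences. SAPX had signals of 9.60, 11.4 and 10.5 in ripe columns, and 9.37, 11.2 and 10.3 in unripe columns. The values of the stages were interleaved, and the log2 difference was 0.034. Leaving out 1 column shifts every probe set alike, through the factor between the columns, and this shift took SAPX to -0.027 without ripe replicate 2 and to -0.029 without unripe replicate 1.

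MDHAR had 3.364, 4.003 and 3.684 in ripe columns, and 3.191, 3.798 and 3.495 in unripe columns. Its probe set was dimmer than the next brightest bacterial control in both stages, and brighter than 30.5% of all probe sets. The log2 difference was 0.076 or 1.05 fold, which lies inside the range of the bacterial controls. The difference of GME exceeded that of SAPX by 0.52.

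Only GME, L-GalDH and VTC4 of the 7 genes lay above the range of the bacterial controls and 0 lay below it. Of all probe sets, 22.5% lay above that range and 5.38% below it. This range is not centred on 0, so that more probe sets lie above it than below it. All but the brightest of the controls behind it had signals of 4.58 or less, so that it describes dim probe sets.

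**Figure D3:**
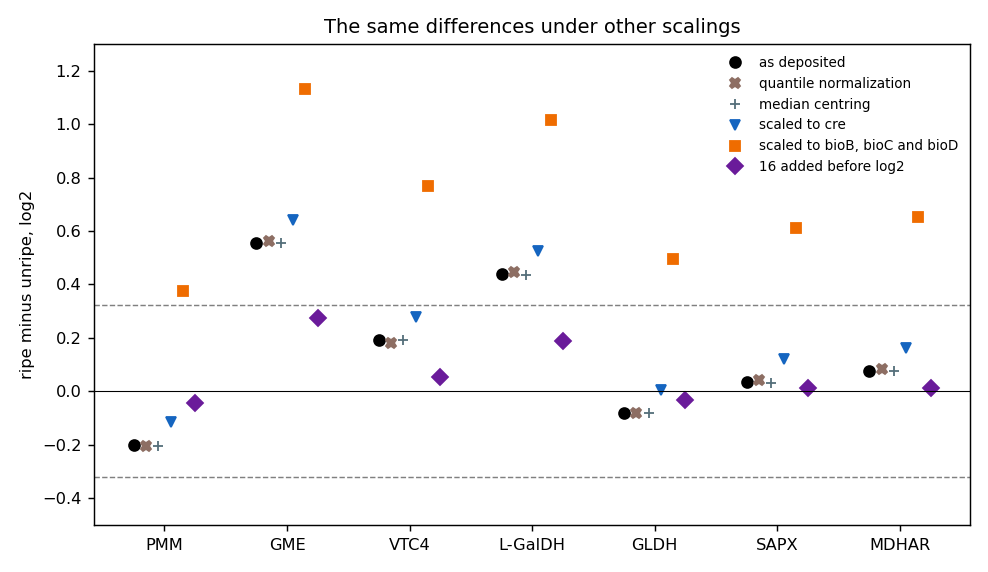
Log2 difference, ripe minus unripe, of each of the 7 genes as deposited and under 5 other treatments of the signals, with dashed lines at a log2 difference of 0.32 in either direction. GME and L-GalDH stay above 0 in all of them and fall inside the dashed lines when 16 is added to the signals, while PMM and GLDH are above 0 under bio-control scaling, and GLDH also under cre-control scaling.

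A wider list of 60 genes around ascorbate was described in the same way, of which 14 were matched to 15 probe sets. Those listed as VTC3 are probe sets of AT2G40316, which is not the regulator of that name, and they remain in the counts below. The other 46, among them both GDP-L-galactose phosphorylase genes VTC2 and VTC5 and the dehydroascorbate reductases, were not analysed here. As deposited, ripe pulp had the higher signal for 6 of the 15 probe sets and the lower one for 9. The median of their log2 differences was -0.027, against -0.0047 over all probe sets, and would be 0.059 under cre-control and 0.55 under bio-control scaling. Beyond 0.32 on the log2 scale 0 were higher and 1 was lower, where 3.57% of all probe sets were higher and 3.53% lower, and under bio-control scaling 13 would be higher and 0 lower. This list is no neutral draw either, since GMD1 and MIPS2 were matched only through the study's tables of genes chosen on these same samples.

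That 1 gene was GR1 (AT3G24170), a glutathione reductase, the enzyme that keeps glutathione reduced for the regeneration of ascorbate. GR1 had signals of 4.15, 4.94 and 4.54 in ripe columns, against 6.23, 7.42 and 6.83 in unripe columns. Every ripe value was below every unripe value. The log2 difference was -0.59, lower in ripe pulp, and 60 of all probe sets had a lower one. Under bio-control scaling it would be -0.011, and with 16 added to each signal it was -0.15, short of the threshold of 0.32. The mean signal of GR1 was 4.53 in ripe pulp, below the next brightest bacterial control at 4.58, and 6.81 in unripe pulp, so that the ripe side of this difference lies at the level of the controls. The other glutathione reductase, GR2 (AT3G54660), which is targeted to plastids and mitochondria, had means of 9.26 in ripe and 10.6 in unripe pulp, a log2 difference of -0.19 that would be 0.38 under bio-control scaling.

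Further enzymes that use or regenerate ascorbate gave values on both sides of 0. TAPX (AT1G77490), the ascorbate peroxidase of the thylakoid membrane, had means of 6.54 in ripe and 5.76 in unripe pulp, a log2 difference of 0.18. This exceeded the difference of SAPX, the stromal enzyme, by 0.15. The monodehydroascorbate reductase gene AT5G03630 was at 0.21 with means of 4.01 in ripe and 3.48 in unripe pulp, below the next brightest bacterial control like MDHAR. Of 3 ascorbate oxidase genes, whose products oxidize ascorbate in the cell wall, AT4G39830 had means of 5.91 in ripe and 7.30 in unripe pulp and a log2 difference of -0.30. AT5G21100 was at 0.17 and AT5G21105 at 0.042. The value of AT4G39830 would be 0.27 under bio-control scaling, and it was -0.37 without ripe replicate 2 or without unripe replicate 1, beyond 0.32 in size.

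Genes that feed or leave the route before GME, a gene of the separate inositol branch and regulators were mostly dim. KONJAC2, GMD1, MIPS2, CSN5B and 1 of the 2 probe sets of AT2G40316 passed neither of the 2 brightest bacterial controls. KONJAC1 (AT1G74910) and KONJAC2 (AT2G04650), related to the enzyme that makes GDP-mannose, had log2 differences of 0.017 and -0.018. GMD1 (AT5G66280) and GER2 (AT1G17890), which lead GDP-mannose towards GDP-fucose, were at -0.10 and 0.17. GER2 was 1 of 4 among the 15 probe sets of the wider list above the range of the bacterial controls, and 2 lay below it. Of all probe sets, 22.5% lay above that range and 5.38% below it. MIPS2 (AT2G22240), a myo-inositol phosphate synthase, was at -0.039. CSN5B (AT1G71230), a regulator known in Arabidopsis, was at -0.052. The 2 probe sets listed as VTC3 are those of AT2G40316, at -0.14 and -0.027, and are not to be read as the regulator VTC3. AT2G40860, the gene usually given as VTC3, was not on the list. Its probe set was at 0.093, with signals of 3.54 in ripe and 3.32 in unripe pulp. All of the negative values in this group would be positive under bio-control scaling.

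**Figure D4:**
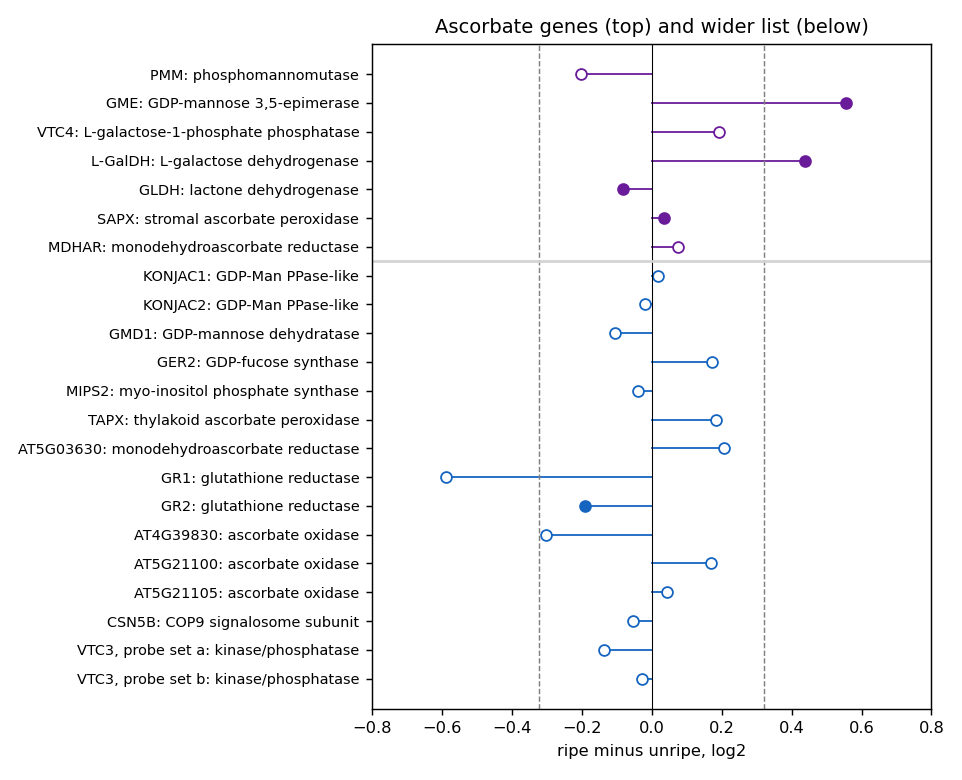
Log2 difference, ripe minus unripe, as deposited, of the 7 ascorbate genes (purple, in pathway order) and the 15 probe sets of the wider list (blue), with dashed lines at a log2 difference of 0.32 in either direction. Filled points were brighter than the brightest bacterial control in at least 1 stage. The points labelled VTC3 are the probe sets of AT2G40316, which is not the regulator of that name. GME, L-GalDH and GR1 are past the dashed lines, and bio-control scaling would move every point right by 0.58.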

How the data were processed

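The authors deposited intensities, namely linear RMA signals with 1 value per probe set and array. Per the paper's methods, .CEL files came from MAS 5.0, RMA was run in GeneSpring and probes were masked with papaya genomic DNA. The deposited table holds all 22810 probe sets of the array and is thus not limited to those that the mask retained. The genomic DNA column (1 column) held no values in the table used here, and the planned ratio of RNA to DNA signals was not computed.

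After a floor of 1, log2 signals were averaged per stage and the unripe mean was subtracted from the ripe mean. Counts exclude the 64 control probe sets. Since the columns of a stage were proportional, limma, chosen in case of independent replicates, was not run, and counts beyond a log2 difference of 0.32 describe 1 set of values per stage. Genes were named from GEO's platform annotation (1 symbol for 13523 probe sets) and, for MDHAR, GMD1 and MIPS2, from the study's tables. All 7 genes and every measured gene of the wider list are named, with the 2 nearest probe sets to each of the 7. Members and lists were chosen with earlier results of these data known. RefSeq (ASM5485532v1) names 1 papaya gene each for PMM, GME, VTC4 and GLDH. Arrays give no depth, and their number limits the precision. The procedure was tested on simulated data whose columns carried independent noise, unlike the deposited columns, so that only the calculation was checked. Alternatives were other normalizations, scalings to controls, 16 added to signals, a filter on dim probe sets and leaving out columns. Python 3.11.15, numpy 2.4.6, pandas 2.3.3 and matplotlib 3.10.9 were used.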

Additional observations from a re-analysis of the deposited data

How the results depend on the processing

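No paired analysis was possible because the columns of a stage are proportional to each other and hold no spread between replicates. A value was taken as moved when it changed by over 0.13, the SD of the bacterial control differences. Quantile normalization, median centring and the ratio of mean linear signals moved none of the values and changed no sign. For the ratio this was fixed in advance by the constant factor between columns, and median centring can only shift every probe set alike. Scaled to bioB, bioC and bioD, the median log2 difference was 0.77 for the synthesis genes, 0.63 for the recycling genes and 0.55 for the wider list, 21115 probe sets exceeded 0.32 upwards and 8 downwards, and 10 of 22 single probe sets changed sign. Scaled to cre, these counts were 1854 and 349, and 5 of 22 changed sign. With 16 added, the synthesis median was 0.054, GME and L-GalDH were at 0.27 and 0.19, and 17 probe sets passed 0.32 upwards and 30 downwards. Among probe sets brighter than the brightest bacterial control the synthesis median was 0.44, over GME, L-GalDH and GLDH, that of the wider list was GR2's -0.19, and the counts were 213 upwards and 243 downwards. Leaving out 1 column gave medians from 0.13 to 0.26 for synthesis, from -0.0086 to 0.12 for recycling and from -0.091 to 0.037 for the wider list, with 418 to 1498 probe sets beyond 0.32 upwards and 433 to 1569 downwards. GME ranged from 0.49 to 0.62 and L-GalDH from 0.37 to 0.50. The low counts upwards came without ripe replicate 2 (427) or unripe replicate 1 (418), and the high ones without ripe replicate 1 (1498) or unripe replicate 2 (1478). These shifts follow from the constant factor between columns.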

Other observations

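The probe sets with 1 gene symbol nearest to each gene were found by Euclidean distance over 2 values, the log2 signals of ripe and unripe pulp. The genomic DNA signal of the rule was not analysed here. Nearest to GME were AT3G01490 (distance 0.041) and AT4G11670 (0.13), and AT3G01490 had signals of 18.7 in ripe and 12.6 in unripe pulp. Nearest to L-GalDH were PRA1.A1 (0.041) and AT1G23720 (0.058), and PRA1.A1 had signals of 13.9 in ripe and 10.7 in unripe pulp. GLDH had AT1G24510 (0.012) and PRXIIF (0.012) as neighbours, and PRXIIF, a mitochondrial peroxiredoxin, had signals of 10.1 in ripe and 10.6 in unripe pulp. The neighbours of SAPX were AT1G56270 (0.011) and AT3G25080 (0.017), those of VTC4 were AT5G35400 (0.0098) and AT2G20330 (0.013), those of PMM were AT5G58490 (0.0062) and AT2G18190 (0.0083), and those of MDHAR were AT5G32630 (0.00069) and AT4G13630 (0.0019). Distances are smaller for dim genes, where probe sets are dense, and 2 values per gene describe likeness only loosely.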
